A study of Mus musculus with 4 samples.

Results

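The genes that turn newly made collagen chains into a crosslinked fibre were examined in mouse fibroblasts from animals labelled Zip13KO and from wild-type (WT) animals. A list of 33 genes was taken, and a gene counted as measured where the array table held a row carrying its symbol alone, with the brightest such row kept. This gave 29 measured genes among 22180 in the whole table. Plod3 and Loxl2 were present only in rows that also carry another gene's symbol, and Fkbp10 and Adamts2 had no named row, so these 4 genes were not analysed here. RNA from 4 samples had been hybridised to Affymetrix Mouse Gene 2.0 ST arrays, with 2 arrays labelled Zip13KO and 2 labelled WT. The labels give a genotype and the word fibroblasts, and call the replicates biological. They name no strain, age, sex, body site, passage or type of allele, nor a treatment of either group. They also do not say whether biological replicates were separate animals or separate cultures. The p-values therefore set a difference only against the scatter among these samples, modelled over all genes. Part of that scatter may be technical. The study set out to ask how a local disturbance of zinc affects the Golgi and the region around the nucleus.

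Collagen is modified while it is still unfolded in the endoplasmic reticulum (ER). Prolyl and lysyl hydroxylases, which use iron, ascorbate and 2-oxoglutarate, add hydroxyl groups that stabilise the triple helix and prepare crosslinks, galactosyltransferases add sugar to hydroxylysine, and chaperones hold the helix together. Outside the cell, zinc metalloproteases remove the propeptides, and copper-dependent lysyl oxidases then crosslink the fibrils. Zip13, the product of Slc39a13, is a zinc transporter of the secretory pathway, and in humans its loss causes a form of Ehlers-Danlos syndrome in which underhydroxylated collagen has been described.

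Slc39a13 itself had log2 intensities of 8.89 and 8.98 on the arrays labelled Zip13KO, against 8.94 and 8.85 on the WT arrays. The groups overlapped, and the difference was 0.04 log2 units (95% interval -0.12 to 0.20, limma adjusted p = 0.820). It is not known whether its probes fall inside the altered part, so the value is no check of the genotype, and the group is called by its label throughout. Array medians lay between 94.5 and 96.1 intensity units, Pearson's r between arrays, across rows, was 0.994 within each group and 0.983 to 0.985 between groups, and the number of arrays limits the precision. Of 14 fibroblast markers, 12 lay above the median gene in mean intensity, while Lum and Fap, which are matrix and surface markers of many fibroblasts, lay below it.

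Most of the measured collagen-modifying genes were lower on the arrays labelled Zip13KO. Of the 29, 18 fell and 2 rose at an adjusted p under 0.05, against 10.1% of all genes lower and 7.00% higher, and 9 did not pass. The median difference over the 29 genes was -0.25 log2 units, beside -0.0034 over all genes. Tll1 fell furthest, and Lox, Plod2, Pcolce2 and P4ha3 also fell by at least 1 log2 unit, a size reached downward by 0.739% of all genes. Falls of at least 0.5 log2 units were seen in 8 of the 29 and in 2.91% of all genes. P3h2 and P3h3 were the 2 that rose. In a bulk RNA sample, fewer cells of a type and less RNA per cell cannot be told apart.

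The arrays themselves showed the same split. In 21 of the 29 genes both arrays labelled Zip13KO lay below both WT arrays, as in 27.3% of all genes. Crtap, P3h2 and P3h3 lay above both WT arrays, as did 24.1% of all genes. The groups overlapped for Colgalt2, Bmp1, Tll2, Pcolce and Mrc2. With 2 arrays against 2, the smallest two-sided p of an exact permutation test on a single gene is 0.333, and every call therefore depends on the variance model fitted over all genes. These genes are also brighter than most, with 25 of the 29 above the median gene, and bright genes were called more often in this table. Among the 13819 genes that passed a filter on low values, 17.0% were lower and 11.8% higher, and 26 of the 29 collagen-modifying genes passed that filter, all but Colgalt2, Tll2 and Adamts3.

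**Figure D1:**
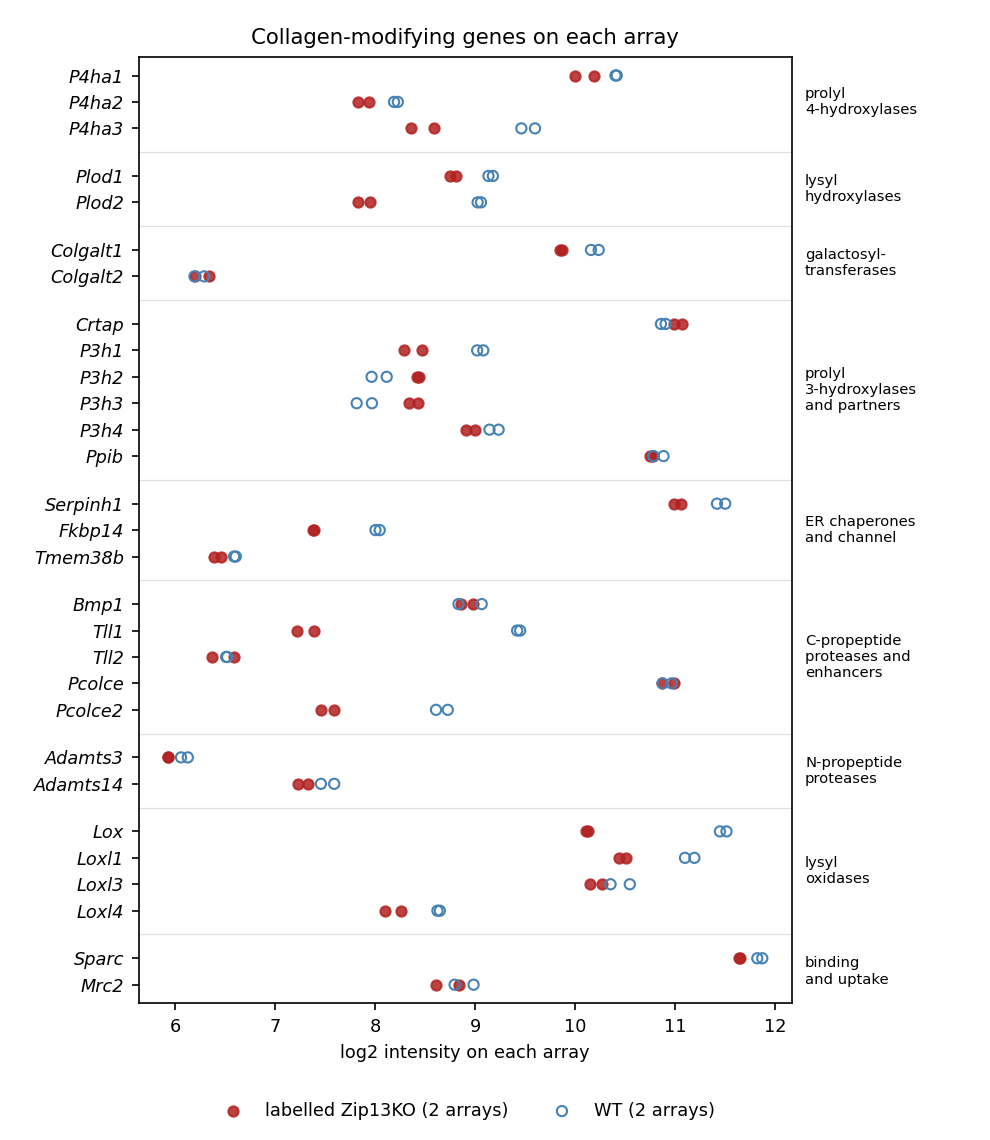
Log2 intensity of the 29 measured collagen-modifying genes on each of the 4 arrays, with filled points for the 2 arrays labelled Zip13KO and open points for the 2 WT arrays, grouped by role. The widest gaps are those of Tll1, Lox, Plod2, Pcolce2 and P4ha3, and the filled points lie to the right of the open ones for Crtap, P3h2 and P3h3.

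All 3 prolyl 4-hydroxylase alpha subunits fell. These are the catalytic chains of the enzyme that makes the 4-hydroxyproline on which a stable helix depends. P4ha3 had log2 intensities of 8.58 and 8.36 on the arrays labelled Zip13KO, against 9.46 and 9.60 on the WT arrays. Both values of the labelled group were well below both WT values, and the mean was 2.08-fold lower (difference -1.06, SE 0.08, limma adjusted p = 4.21e-08). P4ha1 measured 10.00 and 10.19 in log2 intensity with the Zip13KO label and 10.42 and 10.40 in WT. P4ha2 measured 7.83 and 7.94 in log2 intensity with the Zip13KO label and 8.19 and 8.23 in WT. The groups were again separate for these 2 widely expressed subunits, but by a smaller difference than P4ha3 (-0.32 for each, SE 0.07 and 0.08, adjusted p = 0.00420 and 0.00627). The 95% interval of P4ha3 (-1.24 to -0.88) did not overlap those of P4ha1 (-0.47 to -0.16) and P4ha2 (-0.49 to -0.16). The difference between subunits was not tested. P4ha1 and P4ha2 did not pass where all 41345 rows entered the fit and the adjustment (adjusted p = 0.0851 and 0.0678).

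The promoters of the 3 subunits are shown because the subunits fell by different amounts. A further reason is that P4ha1 and P4ha2 are known targets of the hypoxia-inducible factor. ACGTG is a form of this factor's core site, and other forms of that site were not searched. Each window runs from 250 bases before to 50 bases after a RefSeq transcript start (GRCm38.p6). Capitals mark matches on either strand to ACGTG. P4ha1 (chr10:59323046-59323345, plus strand) held 1 match, beginning 16 bases before the start, P4ha2 (chr11:54100674-54100973, plus strand) held 1 at 78 bases before and 1 at position 11 after the start, and P4ha3 (chr7:100285270-100285569, plus strand) held none.
P4ha1: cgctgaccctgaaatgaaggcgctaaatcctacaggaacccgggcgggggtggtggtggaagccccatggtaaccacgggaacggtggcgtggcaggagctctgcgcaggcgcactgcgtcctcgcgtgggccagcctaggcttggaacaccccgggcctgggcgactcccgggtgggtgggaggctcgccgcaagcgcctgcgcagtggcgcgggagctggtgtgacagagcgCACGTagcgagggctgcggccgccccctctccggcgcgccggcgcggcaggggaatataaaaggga
P4ha2: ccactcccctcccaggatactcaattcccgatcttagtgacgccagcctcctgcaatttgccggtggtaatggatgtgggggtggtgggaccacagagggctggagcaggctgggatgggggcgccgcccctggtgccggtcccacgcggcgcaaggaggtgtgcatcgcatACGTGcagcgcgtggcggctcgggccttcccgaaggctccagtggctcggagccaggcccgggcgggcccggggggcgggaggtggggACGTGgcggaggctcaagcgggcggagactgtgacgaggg
P4ha3: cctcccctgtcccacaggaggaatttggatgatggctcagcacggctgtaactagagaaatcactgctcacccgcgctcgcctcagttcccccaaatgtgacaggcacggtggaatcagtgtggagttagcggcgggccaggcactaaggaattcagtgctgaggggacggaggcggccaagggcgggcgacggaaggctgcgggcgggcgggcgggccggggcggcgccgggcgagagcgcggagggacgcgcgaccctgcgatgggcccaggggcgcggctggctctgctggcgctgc
The motif was found in 19.6% of all 32851 windows of this length, and in 7 of the 22 windows of measured collagen-modifying genes, which came from 19 genes. Of the 13 genes with a window that fell, 5 held it, and so did Ppib and Adamts3, which did not pass. A match is a string of letters, not a known binding site, and a part of this factor in the falls was not tested.

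The 2 measured lysyl hydroxylases fell as well. Plod2, which hydroxylates lysines in the telopeptides and so directs the type of crosslink, had log2 intensities of 7.95 and 7.83 on the arrays labelled Zip13KO, against 9.06 and 9.02 on the WT arrays. The groups were more than 1 log2 unit apart at every array, and the mean was 2.23-fold lower (difference -1.16, SE 0.08, limma adjusted p = 3.60e-09). Plod1, the hydroxylase of lysines in the helix, had 8.75 and 8.81 with the Zip13KO label and 9.18 and 9.13 in WT, also in log2 intensity. It too was lower on both labelled arrays, by 0.37 log2 units (SE 0.07, adjusted p = 0.00111). Colgalt1, the main collagen galactosyltransferase, measured 9.87 and 9.84 with the Zip13KO label, against 10.24 and 10.16 in WT, and fell by 0.34 log2 units (SE 0.07, adjusted p = 0.00128). Its relative Colgalt2 was dim, at the 26.4th percentile of genes by mean intensity, its groups overlapped, and its difference was 0.02 (95% interval -0.15 to 0.20, adjusted p = 0.918).

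Prolyl 3-hydroxylases and their partners moved in both directions. P3h1, which forms a complex with Crtap and the isomerase Ppib, had log2 intensities of 8.28 and 8.46 on the arrays labelled Zip13KO, against 9.08 and 9.02 on the WT arrays. Both labelled arrays were lower, and the difference was -0.68 (SE 0.08, limma adjusted p = 5.95e-06). Its partners differed in the same arrays by 0.15 for Crtap (95% interval 0.01 to 0.28, adjusted p = 0.141) and by -0.07 for Ppib (-0.21 to 0.06, adjusted p = 0.574), and neither passed. Crtap, a bright gene, nonetheless lay higher on each labelled array than on each WT array, with 11.06 and 10.99 under the Zip13KO label and 10.86 and 10.90 in WT, and it passed after a further quantile normalization (0.20, adjusted p = 0.0310).

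P3h3 and P3h2 were the members that rose. P3h3 measured 8.43 and 8.34 in log2 intensity with the Zip13KO label, against 7.82 and 7.97 in WT. It was higher on both labelled arrays, by 0.49 log2 units or 1.41-fold (SE 0.08, limma adjusted p = 2.27e-04). P3h2, which acts on basement membrane collagen, measured 8.42 and 8.44 with the Zip13KO label, against 7.96 and 8.12 in WT, and rose by 0.39 (SE 0.08, adjusted p = 0.00166). The groups did not overlap for either gene. P3h4, which has no enzyme activity and is found in a complex with P3h3 and Plod1, had 8.91 and 9.00 with the Zip13KO label and 9.23 and 9.14 in WT. Thus of these 3 genes, P3h3 was higher while P3h4 (-0.23, SE 0.07, adjusted p = 0.0380) and Plod1 were lower. The P3h4 call was lost under 7 of 12 alternative settings, with the difference between -0.28 and -0.18 and the adjusted p between 0.0226 and 0.274. The P3h3 promoter is shown as that of the gene that rose most. It lies at chr6:124857668-124857967 on the minus strand and held no match to ACGTG or to CAGACA, a Smad-binding sequence, so it has no capitals.
P3h3: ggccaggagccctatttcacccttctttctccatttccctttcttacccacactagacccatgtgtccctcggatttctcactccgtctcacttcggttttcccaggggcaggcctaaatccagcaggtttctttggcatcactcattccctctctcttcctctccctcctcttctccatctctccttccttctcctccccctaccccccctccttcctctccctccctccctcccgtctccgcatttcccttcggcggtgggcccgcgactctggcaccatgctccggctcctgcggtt

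**Figure D2:**
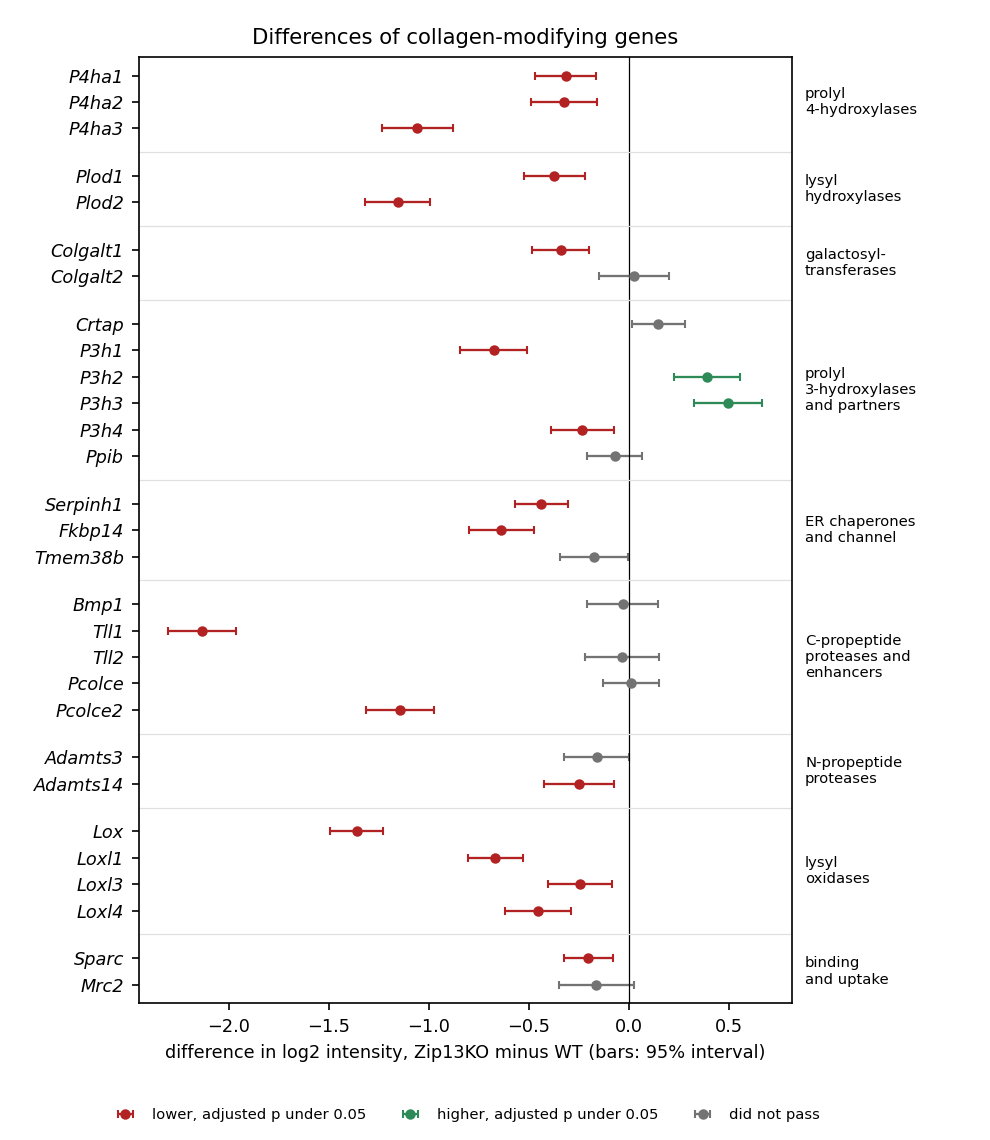
Difference in log2 intensity, Zip13KO minus WT, of the 29 measured collagen-modifying genes, with 95% intervals from the model fitted over all genes and colours for genes that fell, rose or did not pass. The intervals of all prolyl 4-hydroxylase, lysyl hydroxylase and lysyl oxidase genes lie below 0. Those of P3h2, P3h3 and Crtap lie above it, though Crtap did not pass.

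Of the 3 measured ER proteins in the group of chaperones, isomerases and an ion channel, 2 fell. Serpinh1, which encodes the collagen-specific chaperone Hsp47, had log2 intensities of 10.98 and 11.06 on the arrays labelled Zip13KO, against 11.50 and 11.42 on the WT arrays. The gap between the groups was several times the spread within them (difference -0.44, SE 0.06, limma adjusted p = 5.39e-05). Fkbp14, a prolyl isomerase whose loss in humans causes a kyphoscoliotic form of Ehlers-Danlos syndrome, had 7.39 and 7.38 with the Zip13KO label and 8.00 and 8.05 in WT. Its replicates were close in both groups, and it fell by 0.64 log2 units (SE 0.08, adjusted p = 8.25e-06). Tmem38b, an ER potassium channel mutated in recessive brittle bone disease, was lower on both labelled arrays but did not pass (-0.17, 95% interval -0.34 to -0.0072, adjusted p = 0.170).

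Among the proteins that remove the C-propeptide, some were strongly lower and others differed little. Tll1, a tolloid-like protease of the Bmp1 family, had log2 intensities of 7.21 and 7.39 on the arrays labelled Zip13KO, against 9.42 and 9.45 on the WT arrays. The groups stood about 2 log2 units apart, and the mean with the Zip13KO label was 22.8% of that in WT (difference -2.13, SE 0.08, limma adjusted p = 1.48e-12). Pcolce2, which enhances cleavage by these proteases, had 7.46 and 7.58 with the Zip13KO label and 8.61 and 8.73 in WT. It was 2.21-fold lower with no overlap (-1.14, SE 0.08, adjusted p = 7.99e-09).

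The related genes did not pass. Bmp1, the main C-proteinase, had 8.85 and 8.98 with the Zip13KO label and 9.07 and 8.83 in WT, so the groups were interleaved (difference -0.03, 95% interval -0.21 to 0.15, adjusted p = 0.889). For Tll2, dim on all arrays, the difference was -0.04 (-0.22 to 0.15, adjusted p = 0.874). Pcolce, the brighter enhancer gene, differed by 0.01 (-0.13 to 0.15, adjusted p = 0.957), with 10.87 and 10.99 under the Zip13KO label and 10.97 and 10.87 in WT. For Bmp1 and Pcolce the intervals leave out falls of the size seen for Tll1 and Pcolce2. Tll2 lay at the 35.8th percentile and did not pass the filter on low values. A fall of that size might not show on its probes, so its interval cannot leave one out. The intervals of Tll1 (-2.30 to -1.96) and of Pcolce2 (-1.32 to -0.97) did not overlap with those of Bmp1 and Pcolce. No test of the difference between genes was made.

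The Tll1 promoter is shown because this gene fell most. It lies at chr8:64205959-64206258 on the minus strand, and capitals mark its single match to CAGACA, on either strand, which begins 180 bases before the start.
Tll1: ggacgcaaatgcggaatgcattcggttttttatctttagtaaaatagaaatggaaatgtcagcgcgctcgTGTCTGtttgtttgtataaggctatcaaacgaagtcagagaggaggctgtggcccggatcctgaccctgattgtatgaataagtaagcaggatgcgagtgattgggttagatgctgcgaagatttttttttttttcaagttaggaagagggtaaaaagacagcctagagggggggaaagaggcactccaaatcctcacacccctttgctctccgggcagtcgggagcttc
CAGACA was found in 21.0% of all windows and in 6 of the 22 windows of measured collagen-modifying genes, including those of Serpinh1, Fkbp14, Sparc and Colgalt1. Of the 13 genes that fell and had a window, 5 held it.

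The N-propeptide proteases showed small differences. Adamts14 had log2 intensities of 7.32 and 7.23 on the arrays labelled Zip13KO, against 7.59 and 7.46 on the WT arrays, and fell by 0.25 (SE 0.08, limma adjusted p = 0.0476). This call lay close to the threshold and was lost under 6 of 12 alternatives. The gene had 2 rows, and their mean differed by -0.09 (adjusted p = 0.554), so the rows disagreed. Adamts3 was dim, at the 17.4th percentile, and was not called (-0.16, 95% interval -0.32 to 0.0019, adjusted p = 0.200).

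All 4 measured lysyl oxidases fell. These copper enzymes oxidise lysine and hydroxylysine in collagen and elastin to start crosslinking. Lox had log2 intensities of 10.11 and 10.13 on the arrays labelled Zip13KO, against 11.45 and 11.51 on the WT arrays. The replicates were tight and the groups far apart, and the mean was 2.57-fold lower (difference -1.36, SE 0.06, limma adjusted p = 2.61e-11). Loxl1, which serves elastic fibres above all, had 10.44 and 10.51 with the Zip13KO label and 11.19 and 11.10 in WT. It was lower on both labelled arrays by 0.67 log2 units (SE 0.07, adjusted p = 5.51e-07). Loxl4 had 8.10 and 8.26 with the Zip13KO label and 8.65 and 8.62 in WT, and fell by 0.45 (SE 0.08, adjusted p = 3.97e-04). The smallest fall of the family was that of Loxl3, by 0.24 (SE 0.08, adjusted p = 0.0326), with 10.14 and 10.27 under the Zip13KO label and 10.55 and 10.35 in WT. The nearest arrays of its groups were close, and the call was lost under 5 of 12 alternatives, where the adjusted p reached 0.409 without WT replicate 1. 

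Of the genes that bind or take up collagen, Sparc fell slightly. Sparc, a secreted glycoprotein that binds collagen and is among the brightest genes of these arrays, had log2 intensities of 11.64 and 11.65 with the Zip13KO label and 11.87 and 11.82 in WT (difference -0.20, SE 0.06, limma adjusted p = 0.0190). Its groups were separate, but the call was lost under 5 of 12 alternatives. Mrc2, the endocytic collagen receptor Endo180, had 8.61 and 8.84 with the Zip13KO label and 8.98 and 8.79 in WT. These overlapped and it was not called (-0.16, 95% interval -0.35 to 0.02, limma adjusted p = 0.271). Mrc2 did pass under 1 of 12 alternatives, and over these its difference ran from -0.28 to -0.05.

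**Figure D3:**
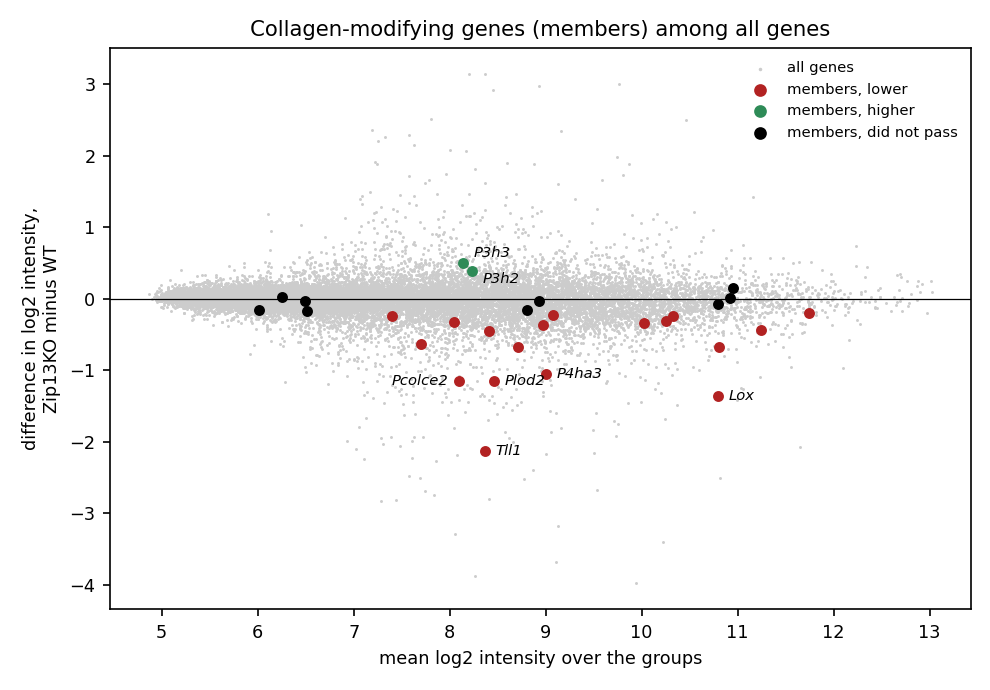
Difference in log2 intensity, Zip13KO minus WT, against mean log2 intensity for all 22180 genes (grey) and for the collagen-modifying genes (coloured by call). Pcolce2, Tll1, Plod2 and P4ha3 lie between the 71.5th and 83.8th percentiles of genes by mean intensity, and Lox lies at the 97.6th.

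The substrates of these enzymes were read in the same arrays. Of 41 collagen chains, 12 fell (29.3%) and none rose in limma, beside 10.1% lower and 7.00% higher among all genes. None was higher at an unadjusted p under 0.05, and the median difference of the chains was -0.07 log2 units. The largest called differences were those of Col4a1 (-1.56) and Col4a2 (-1.38), which form the network of basement membranes, Col12a1 (-1.46), found on the surface of fibrils, and the microfibril chain Col6a3 (-0.97). For the chains of the main fibrils, named here after their values were seen, Col1a1 fell by 0.89 (SE 0.07) and Col1a2 fell by 0.46 (SE 0.07), while Col3a1 differed by -0.14 (adjusted p = 0.363). Lox, Plod2 and P4ha3 therefore stood below WT by more than Col1a1 in log2 units, and P4ha1, P4ha2, Plod1 and Serpinh1 by less, without a test between genes.

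Most partners in folding and in export from the ER were lower too. Of 36 such genes, 21 fell (58.3%) and 1 rose (2.78%), beside 10.1% lower and 7.00% higher among all genes. Their median difference was -0.24 log2 units, and 35 of the 36 lay above the median gene. Among genes past the filter on low values, 17.0% were lower and 11.8% higher. Creb3l1, a membrane-bound transcription factor needed for collagen secretion in bone, had log2 intensities of 7.58 and 7.51 with the Zip13KO label and 9.19 and 9.30 in WT, and fell by 1.70 (SE 0.08, limma adjusted p = 2.05e-11). Sec23a, of the coat that carries procollagen out of the ER, fell (-0.92), as did Kdelr3 (-0.86), which returns ER proteins from the Golgi, and the ER chaperone cofactor Dnajb11 (-0.71). P4hb, the subunit shared by the collagen prolyl 4-hydroxylases, was named after its value was seen. It had 11.09 and 11.11 with the Zip13KO label and 11.32 and 11.37 in WT, a fall of 0.25 (SE 0.06, limma adjusted p = 0.00657). This list is sensitive to the processing: 11 genes fell where every row entered the fit, and 13 without WT replicate 2.

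**Figure D4:**
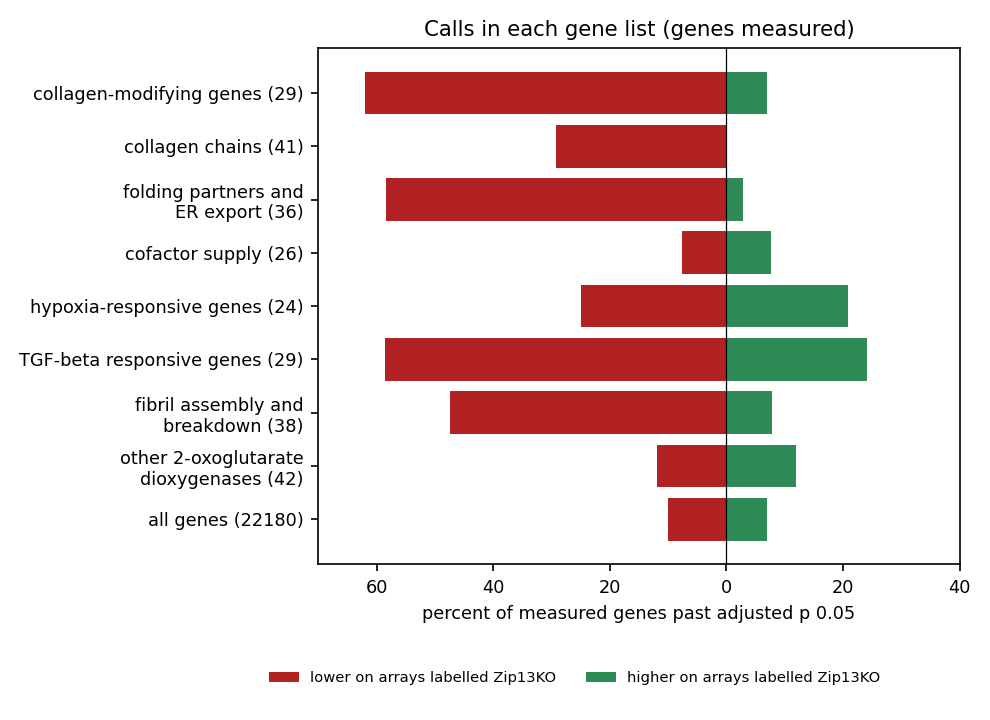
Percent of measured genes in each list that were lower (left of 0) or higher (right of 0) on arrays labelled Zip13KO at an adjusted p under 0.05, with the number measured in brackets. The collagen-modifying genes, the folding and export partners and the TGF-beta responsive genes have the longest bars to the left, and all genes are given last.

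Other dioxygenases that share the cofactors of the collagen hydroxylases were called in both directions. Of 42 measured, 5 rose and 5 fell (11.9% each way, beside 7.00% higher and 10.1% lower among all genes), with a median of 0.02 log2 units. Both arrays labelled Zip13KO lay above both WT arrays in 18 of the 42, beside 24.1% of all genes. They lay below both in 10, beside 27.3% of all genes. Egln3, a prolyl hydroxylase of the hypoxia-inducible factor, rose by 1.45 (SE 0.08) and Jmjd8, a JmjC-domain protein, by 1.13 (SE 0.08). Ogfod3 rose by 0.36 and Tmlhe, of carnitine synthesis, fell by 0.38. Of 26 genes that supply ascorbate, iron, 2-oxoglutarate or copper, 2 rose and 2 fell, a share close to that of all genes. The transferrin receptor Tfrc, through which cells take up iron, had 9.49 and 9.49 with the Zip13KO label and 10.40 and 10.30 in WT, and fell by 0.86 (SE 0.07). The ferrireductase Steap3 rose by 0.67, the mitochondrial carrier Slc25a10 rose by 0.42, and the glucose and dehydroascorbate carrier Slc2a1 fell by 0.35.

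Several of the genes that fell are known to respond to hypoxia or to TGF-beta, so both lists were read in the same arrays. Hypoxia-responsive genes were split, with 5 of 24 higher (20.8%) and 6 lower (25%) and a median of -0.01 log2 units. Both shares stood above the 7.00% higher and 10.1% lower among all genes. The list also holds genes that sense oxygen or encode the hypoxia-inducible factor. Of these, Hif1a (-0.41) was among the 6 that fell, while Epas1 and Vhl did not pass. Adm, which encodes adrenomedullin, fell by 1.95, and the stress-response gene Ddit4 fell by 0.61, whereas Egln3 and the kinase Pdk1 (0.50) rose. The TGF-beta list had 17 of its 29 measured genes lower (58.6%) and 7 higher (24.1%), with a median of -0.41 log2 units. The matricellular genes Postn (-3.68) and Thbs1 (-2.51) fell, as did the smooth muscle actin Acta2 (-2.08) and Ltbp2 (-1.58), of the family of latent TGF-beta binding proteins. The 7 that rose, named after their values were seen, were Ltbp1 (0.70), Tgfbr2 (0.60), Tgfb3 (0.52), Tgfb1 (0.34), Tgif1 (0.32), Cdkn2b (0.31) and Tgfbi (0.25). The list holds ligands and receptors as well as responding genes. The ligand Tgfb2 (-0.41) and the receptor Tgfbr1 (-0.38) were among the 17 that fell. Of 38 genes of fibril assembly and collagen breakdown, 18 fell (47.4%) and 3 rose (7.89%), with a median of -0.17. Besides Postn, the gelatinase Mmp2 (-2.68), Thbs2 (-2.06) and the fibulin Fbln2 (-1.41) fell. Some genes, such as Acta2, Col1a1, Fn1 and Postn, stand in more than 1 list or marker set, so these are not separate readings.

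Markers of contractile cells moved with these genes, and their part in the result was not tested. Beside the marker counts below, 10.1% of all genes were lower and 7.00% higher. Of 11 smooth muscle or myofibroblast markers, 7 fell and none rose in limma, with 1 higher at an unadjusted p under 0.05, and their summed linear intensity was 4424 and 4493 on the arrays labelled Zip13KO, against 16219 and 15556 on the WT arrays. Those that fell were Myl9 (-3.99), Actg2 (-2.81), Acta2 (-2.08), Tagln (-1.49), Tpm2 (-0.87), Cnn1 (-0.55) and Mylk (-0.30), and the Myl9 difference was the largest fall of all 22180 genes. Lmod1 (-0.23), Smtn (-0.07), Myh11 (0.01) and Des (0.23) did not pass. Actin genes are alike in sequence, so Acta2 and Actg2 may share signal. Of 14 fibroblast markers, 2 rose and 6 fell, with sums of 17043 and 17732 under the Zip13KO label and 22448 and 21445 in WT. The platelet-derived growth factor receptors went apart, with Pdgfra higher (1.04) and Pdgfrb lower (-0.92). In the mesothelial list only Msln rose, by 2.97, which took the sum to 1794 and 1847 with the Zip13KO label, against 620.0 and 628 in WT, while Upk3b, Wt1, Lrrn4 and Muc16 did not pass. Summed intensities of the leukocyte list were 851 and 858 with the Zip13KO label and 911 and 859 in WT, and 1 of 9 rose and 2 fell. Endothelial sums were 600.2 and 608 with the Zip13KO label and 587 and 570.5 in WT, with none of 7 called in limma (1 higher at an unadjusted p under 0.05). Epithelial sums were 718 and 743 with the Zip13KO label and 768 and 712 in WT, with none of 6 called in limma (1 lower at an unadjusted p under 0.05). The Schwann cell or melanocyte list had 1 of 4 higher, with sums of 370.4 and 355 under the Zip13KO label and 361 and 318 in WT. Of 6 adipocyte markers 1 rose and 1 fell, with 698 and 674 under the Zip13KO label and 647 and 606 in WT. Of 7 chondrocyte or osteoblast markers 1 rose, with 2109 and 2013 under the Zip13KO label and 1763 and 1811 in WT. No marker is at 0 on an array, where background leaves every probe some signal.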

How the data were processed

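The deposited table holds linear-scale intensity, made by the authors with Affymetrix Expression Console and RMA per the submitters' processing notes, which give no versions. Values ran from 21.8 to 10826, so log2 was taken, with no pseudocount. Of 41345 rows, 23521 carried 1 gene symbol, 1814 several and 16010 none. The brightest row per gene was kept, and limma 3.58.1 in R 4.3.3 was fitted to 22180 genes (eBayes with an intensity trend, two-sided, Benjamini-Hochberg over genes, threshold 0.05, 2 residual and 15.1 prior degrees of freedom). Differences are Zip13KO minus WT. RMA evens out array distributions, which hides any shift common to most genes.

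The members and lists were chosen with earlier results of these data known. Values per array were given for called members past 0.5 log2 units and for members that rose, and were extended to most others after values were seen. Lists name their 4 largest called differences. The alternatives were a block for the replicate number, a filter on low values (2 arrays or more above their median), quantile normalization, median centring, eBayes without trend or robust, the mean of rows, all rows, and each array left out. The fit was tested on simulated data. The labels do not say whether same-numbered arrays were paired. Their deviations from the group means correlated weakly and negatively (r = -0.16 over genes), which cannot settle it, and the main fit used no pairing. Promoter windows are RefSeq's (GRCm38.p6). Figures used matplotlib 3.10.9.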

Additional observations from a re-analysis of the deposited data

How the results depend on the processing

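Of the 20 collagen-modifying genes called, 14 kept their call under each of 12 alternatives and all 20 kept their direction. P3h4, Adamts14, Loxl3, Sparc, P4ha1 and P4ha2 lost theirs in at least 1. Crtap and Mrc2, which had not passed, each passed under 1 alternative. The number lower was 14 to 18 without single arrays, 16 after quantile normalization, 15 without an intensity trend and 12 with all rows, beside 18. With all rows in the fit and adjustment, 669 genes were higher and 1137 lower, beside 1552 and 2234. The median difference was -0.32 after the filter on low values, which removed 3 dim members, and -0.32 to -0.19 without single arrays. Signs turned only for genes that had not passed: Bmp1 was 0.0195 after quantile normalization and, without single arrays, ran from -0.148 to 0.0837, while Colgalt2 ran from -0.0443 to 0.0925, Tll2 from -0.150 to 0.0756 and Pcolce from -0.0511 to 0.0731. The cause was not tested. Where an array was left out, the lone array of its group was assumed to vary like the other group. With the replicate number as a block, 14 members were lower and 2 higher, and 1990 genes lower and 1374 higher, and P3h4, Adamts14, Loxl3 and Sparc did not pass. With crossed numbers, added after the data were seen, 19 members were lower and 3 higher, and 3005 genes lower and 2203 higher. Among the lists, quantile normalization put 9 other dioxygenases and 4 cofactor genes higher, all rows left 2 higher and 2 lower of those dioxygenases, and without WT replicate 2 they were 2 and 3. The mean of rows left 1 cofactor gene lower, as Slc2a1 did not pass. The single export gene that was higher, Sec24c, was not called in 5 alternatives. Groups of 2 arrays and dim probes near background limit what can be seen.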
